A study of Rattus norvegicus with 6 samples.

Results

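Water channels of the aquaporin family and the receptors of the hormone vasopressin were followed in rat kidney, in a Bailing Capsule group, which received a powder of fermented Cordyceps fungus, and in a diabetic group. The 10 genes are Aqp1, Aqp2, Aqp3, Aqp4, Aqp6, Aqp7, Aqp8, Aqp11, Avpr1a and Avpr2. They were found as all probes, controls aside, whose RefSeq accession on the array belongs to one of these symbols, which gave 12 of 30367 probes and 10 of 15168 named genes. RNA from kidney tissue taken at 21 weeks of age was hybridised to 6 Agilent one-colour rat arrays, 3 for the Bailing Capsule group and 3 for the diabetic group. The labels give no dose, strain or sex, and do not say whether the Bailing Capsule animals were diabetic. No kidney from an untreated, non-diabetic rat was analysed here, so a difference below cannot be placed against normal levels. The labels number the samples as replicates and do not state that each is a separate animal, so the tests measure the spread between these samples, which may be technical.

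Vasopressin is released when body water is short and binds the V2 receptor, the product of Avpr2, on principal cells of the collecting duct. Through Gs and cyclic AMP the receptor sends vesicles carrying aquaporin-2 to the apical membrane and raises transcription of Aqp2 over a longer time. Water then leaves the cell on the basolateral side through aquaporin-3 and aquaporin-4. In the proximal tubule and the thin descending limb, aquaporin-1 carries most of the water, independently of vasopressin.

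None of the genes passed the test between Bailing Capsule and diabetic kidneys. The lowest p belonged to Aqp3, the basolateral water and glycerol channel of principal cells, whose level was 1.79-fold lower in Bailing Capsule kidneys (log2 fold change -0.84, SE 0.26, adjusted p = 0.322 in limma). Aqp7, a glycerol-carrying channel of the proximal tubule, was 1.44-fold lower (log2 fold change -0.53, SE 0.25, adjusted p = 0.696). Aqp3 and Aqp7 were the tested genes whose groups did not overlap, 2 of 9, where 11.6% of all features did not overlap. The differences of Aqp1, Aqp2, Aqp8 and Aqp11 changed sign when the slide, as inferred from the scans, was taken into account.

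The bases before the start of Aqp2 and Aqp3 are given here because these channels act in the same principal cell and cyclic AMP acts on transcription. Both are from RefSeq, build GRCr8, and a table of such windows held an entry for 9 of the 10 genes. The Aqp2 window lies at chr7:132590036-132590285 on the plus strand, and the Aqp3 window at chr5:61040684-61040933 on the minus strand. Each runs 5′ to 3′ over the 250 bases before the start of the gene. Capitals mark matches, on either strand, to the half-site of the cyclic AMP response element (TGACG), to a GATA motif (AGATAA) or to the TATA box (TATAAA).
Aqp2: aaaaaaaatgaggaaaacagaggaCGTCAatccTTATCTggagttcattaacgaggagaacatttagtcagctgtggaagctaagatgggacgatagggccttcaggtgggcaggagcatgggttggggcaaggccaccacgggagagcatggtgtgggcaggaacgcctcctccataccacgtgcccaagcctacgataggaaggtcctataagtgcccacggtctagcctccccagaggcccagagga
Aqp3: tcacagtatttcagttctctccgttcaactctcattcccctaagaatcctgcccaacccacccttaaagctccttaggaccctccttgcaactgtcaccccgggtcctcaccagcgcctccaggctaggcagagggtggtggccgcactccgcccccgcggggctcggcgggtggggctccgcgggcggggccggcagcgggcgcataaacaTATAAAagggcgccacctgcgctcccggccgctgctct

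The Aqp2 window held the half-site on its minus strand, 226 to 222 bases before the start, and the GATA motif on its minus strand, 217 to 212 bases before it. The Aqp3 window held neither of these, and had a TATA box 38 to 33 bases before the start. The full cyclic AMP response element TGACGTCA was in neither window. Of 33469 windows of this length in the table, 18.2% held the half-site, 10.3% the GATA motif, 12.9% the TATA box and 1.59% the full element. A match says only that these letters stand in the window, and binding was not measured. By the order of genes in the RefSeq table, Aqp5 is the only protein-coding gene between Aqp2 and Aqp6, and Aqp7 stands next to Aqp3.

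The arrays were read in 2 scans. Array positions repeat between the scans, so the arrays lie on at least 2 slides. Arrays of the same scan were taken as 1 slide, since no slide barcode could be read. All 3 Bailing Capsule arrays shared slide 1 with diabetic replicate 1, while diabetic replicates 2 and 3 were alone on slide 2. With slide as a block the estimate therefore equals the slide 1 difference, with a single diabetic array behind it. The share of probes well above background ran from 64.55% to 73.46%, no spot was saturated, and all 12 probes had a value on every array. All 11 proximal tubule markers and all 8 thick ascending limb markers on the array passed the filter on dim probes, so the tissue label of kidney was borne out by its defining genes. Levels are given as log2 of the processed signal minus the 75th percentile of the array, so 0 is the 75th percentile over its probes. A level of one probe cannot be set against that of another probe.

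Aqp2, the vasopressin-regulated apical water channel, had levels of 5.86, 5.45 and 5.59 in Bailing Capsule kidneys, compared with 5.63, 6.61 and 6.10 in diabetic kidneys. The groups overlapped, since diabetic replicate 1, the diabetic array on slide 1, lay within the range of the Bailing Capsule arrays, while both diabetic arrays of slide 2 lay above all of them. The means were 5.63 ± 0.21 in Bailing Capsule kidneys and 6.12 ± 0.49 in diabetic kidneys (log2, SD, n = 3 each). The log2 fold change was -0.48 with a 95% interval of -1.15 to 0.18 (adjusted p = 0.842 in limma). With slide as a block it was 0.0022, with an interval of -0.85 to 0.86. Quantile normalization gave -0.21, normexp with quantile normalization -0.24 and the deposited values -0.19.

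Aqp3 had levels of 3.74, 3.41 and 3.19 in Bailing Capsule kidneys, compared with 4.42, 4.32 and 4.12 in diabetic kidneys. All 3 Bailing Capsule arrays lay below all 3 diabetic arrays, the diabetic array on slide 1 included. The probe was printed at 10 spots per array, and the coefficient of variation among them was 4.07% to 10.6%. The means were 3.45 ± 0.28 in Bailing Capsule kidneys and 4.29 ± 0.15 in diabetic kidneys (log2, SD, n = 3 each), and the 95% interval of the log2 fold change was -1.41 to -0.27. With slide as a block the log2 fold change was -0.97 (interval -1.81 to -0.13, adjusted p = 0.83 in limma). Leaving out each array gave -0.99 to -0.71, and the deposited values gave -0.69. An exact permutation test over the 6 samples gave a two-sided p of 0.1, the smallest that 3 against 3 allows. Any groups that do not overlap give this p, those of Aqp7 included, so it adds nothing to the lack of overlap. Of all tested features 2.52% had a smaller p than Aqp3.

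Aqp4, the further basolateral water channel of principal cells, was measured by 3 probes to the same accession. The brightest had levels of 2.13, 1.41 and 1.36 in Bailing Capsule kidneys, compared with 2.45, 2.15 and 1.31 in diabetic kidneys, and the groups overlapped. Its log2 fold change was -0.34 (interval -1.12 to 0.44), and -0.82 (interval -1.83 to 0.19) with slide as a block. With normexp and quantile normalization it was -0.08. Fitted on their own, the other, dimmer probes gave 0.020 (SE 0.33) and 0.11 (SE 0.25). Each of the 3 values was smaller in size than its SE, which was 0.35 for the brightest. The signs differed, but at this spread the 3 probes show no direction.

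Avpr2, the V2 receptor gene itself, had levels of -2.98, -2.24 and -2.74 in Bailing Capsule kidneys, compared with -3.36, -2.32 and -2.64 in diabetic kidneys. The groups overlapped, and the lowest level of the 6 was that of diabetic replicate 1. The log2 fold change was 0.12 (interval -0.61 to 0.85), and with slide as a block 0.71 (interval -0.18 to 1.60). Signals were between 26.6 and 79.3 units before scaling, well above background on all 6 arrays.

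In the same comparison, 7 further principal cell markers were tested, among them the sodium channel subunits and Hsd11b2, which protects the mineralocorticoid receptor from glucocorticoid. All 7 had values above 0 (0.10 to 0.75, median 0.16), and 0 of them passed. The largest was 0.75 for the transcription factor gene Elf5 (adjusted p = 0.559 in limma). With slide as a block the median of the 7 was 0.53, so its size depended on the slide. The summed level of the 7, in units of the array's 75th percentile, was 14.4 to 18.0 in Bailing Capsule kidneys and 9.90 to 17.4 in diabetic kidneys. Such a sum, here and below, mostly follows the brightest probes of its list. In bulk tissue, fewer cells of a type and less RNA per cell cannot be told apart, for Aqp3 as for the other genes.

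**Figure D1:**
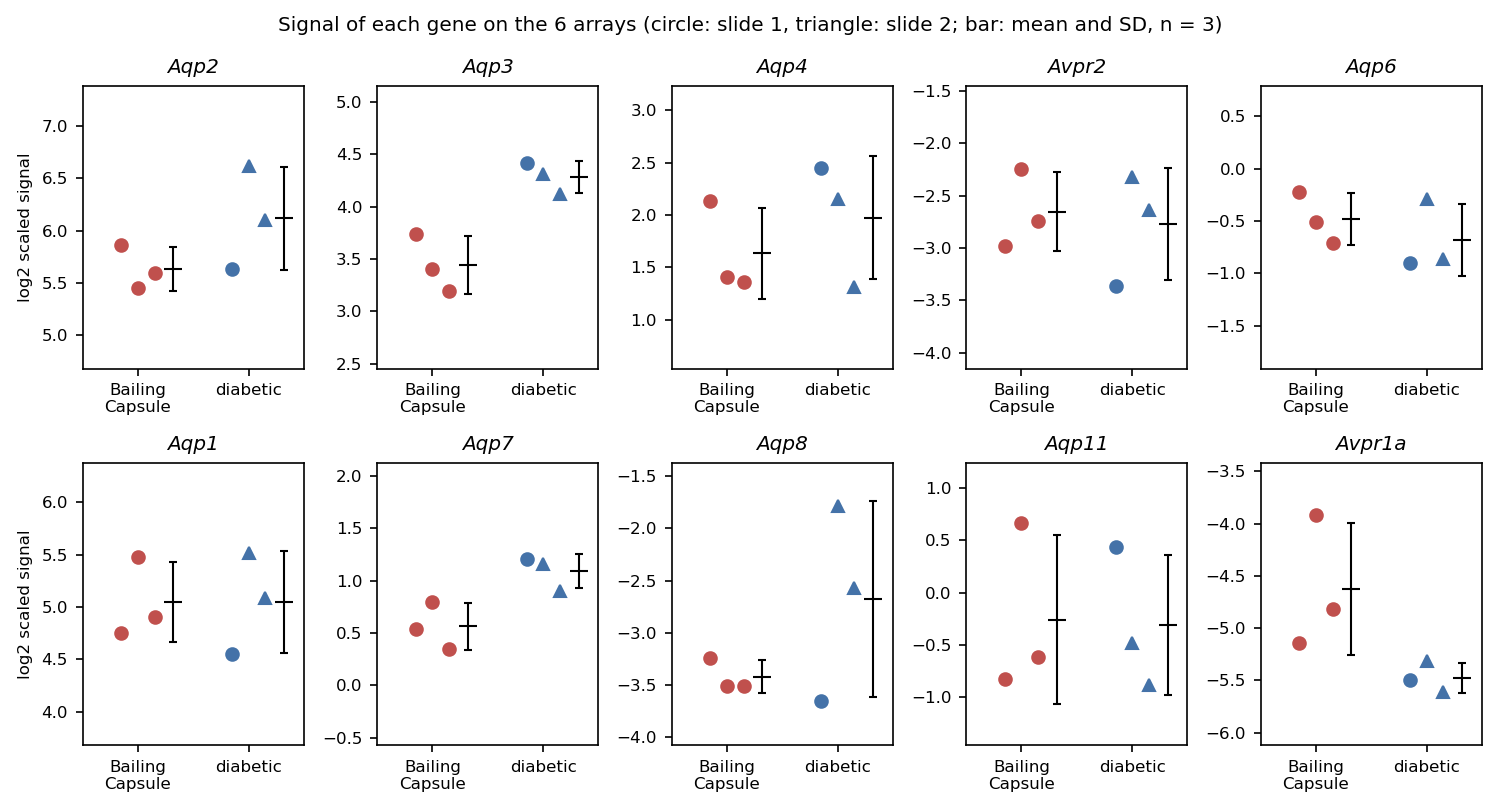
Log2 scaled signal (vertical axis, the same span in every panel) of each of the 10 genes on the 3 Bailing Capsule arrays (left in each panel) and the 3 diabetic arrays (right). Circles are arrays of slide 1 and triangles arrays of slide 2, and bars give the mean and SD (n = 3). Aqp3 and Aqp7 show no overlap between groups among the 9 tested genes, and Avpr1a was at background on 3 arrays. For Aqp1, Aqp2, Aqp6, Aqp8 and Avpr2 the diabetic array of slide 1 lies below those of slide 2.

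Aqp6, an intracellular channel of intercalated cells that in rat also conducts anions, had levels of -0.22, -0.51 and -0.71 in Bailing Capsule kidneys, compared with -0.90, -0.29 and -0.86 in diabetic kidneys. The groups overlapped through diabetic replicate 2. The log2 fold change was 0.20 (interval -0.41 to 0.82), and with slide as a block 0.42 (interval -0.46 to 1.30). Beside it, all 8 tested intercalated cell markers had values above 0, with a median of 0.72. Of all features 62.1% were below 0. Groups did not overlap for 5 of the 8 markers, against 11.6% of all features. At an unadjusted p under 0.05 in limma there were 5 of the 8, against 7.55% of all features. The call was made for 1 of the 8, against 0.319% of all features. It was Slc26a4, which encodes the chloride-bicarbonate exchanger pendrin and rose 3.21-fold (adjusted p = 0.0457 in limma). With slide as a block it did not pass (log2 fold change 1.87, adjusted p = 0.131 in limma). The summed level of these markers was 40.1 to 76.1 in Bailing Capsule kidneys and 31.7 to 50.7 in diabetic kidneys, and their part in the value of Aqp6 was not tested.

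Aqp1, the water channel of the proximal tubule, thin descending limb and red cells, had levels of 4.75, 5.48 and 4.91 in Bailing Capsule kidneys, compared with 4.55, 5.52 and 5.08 in diabetic kidneys. The groups overlapped almost fully. The means were 5.05 ± 0.38 in Bailing Capsule kidneys and 5.05 ± 0.49 in diabetic kidneys (log2, SD, n = 3 each). The log2 fold change was -0.0027 (interval -0.72 to 0.71), and with slide as a block 0.50 (interval -0.41 to 1.41). Its 10 spots per array had a coefficient of variation of 1.54% to 6.73%. The 3 tested red cell markers had a median of 0.69. Their summed level was 96.9 to 188 in Bailing Capsule kidneys and 91.6 to 124 in diabetic kidneys, and its part in the value of Aqp1 was not tested.

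Aqp7 carries glycerol as well as water at the proximal tubule brush border and is also made by adipocytes. Its levels were 0.54, 0.80 and 0.35 in Bailing Capsule kidneys, compared with 1.21, 1.16 and 0.90 in diabetic kidneys. All 3 Bailing Capsule arrays lay below all 3 diabetic arrays, and came closest to each other in Bailing Capsule replicate 2 and diabetic replicate 3. The means were 0.56 ± 0.23 in Bailing Capsule kidneys and 1.09 ± 0.17 in diabetic kidneys (log2, SD, n = 3 each). The 95% interval of the log2 fold change was -1.09 to 0.029, and with slide as a block the value was -0.65 (interval -1.48 to 0.18). Under the scalings and with each array left out, Aqp7 stayed between -0.65 and -0.42.

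Of 11 proximal tubule markers tested, 9 had values below 0 (median -0.30) and 0 passed. The median of these markers was 0.031 with slide as a block, on the other side of 0. The lowest value was -1.03, for the lactate and pyruvate transporter gene Slc5a12 (adjusted p = 0.206 in limma). The summed level of these markers was 458 to 882 in Bailing Capsule kidneys and 592 to 958 in diabetic kidneys. All 5 tested adipocyte markers had values below 0 (median -0.71) and 0 passed. Their summed level was 3.34 to 12.3 in Bailing Capsule kidneys and 6.67 to 12.5 in diabetic kidneys, and the leptin gene Lep was not well above background on any array. What proximal tubule cells or fat contributed to the value of Aqp7 was not tested.

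Aqp8, an aquaporin found inside proximal tubule and collecting duct cells of the rat, had levels of -3.24, -3.51 and -3.51 in Bailing Capsule kidneys, compared with -3.66, -1.79 and -2.57 in diabetic kidneys. The 2 diabetic arrays of slide 2 were far above the other 4 arrays, and diabetic replicate 1 was the lowest of all 6. The log2 fold change was -0.75 (interval -1.66 to 0.17), and with slide as a block 0.24 (interval -0.66 to 1.14). It was -1.24 without diabetic replicate 1 (adjusted p = 0.113 in limma), -0.30 without diabetic replicate 2, and -0.27 with normexp and quantile normalization. Aqp8 is also a gene of liver. All 7 tested liver markers had values below 0 (median -1.13) and 0 passed. Groups did not overlap for 5 of these 7 markers, against 11.6% of all features. At an unadjusted p under 0.05 in limma there were 5, against 7.55% of all features. With slide as a block the median of the 7 was -0.89. Tf then had 0.32, above 0, while the others stayed below 0. The summed level of the 7 was 17.1 to 40.3 in Bailing Capsule kidneys and 22.2 to 51.7 in diabetic kidneys. Tf weighs most in this sum, and its groups overlapped. Apoa1, Ahsg and Cps1 of that list were not well above background on any array. The part of liver RNA in the value of Aqp8 was not tested.

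Aqp11, an aquaporin of the endoplasmic reticulum whose loss gives polycystic kidneys in mice, had levels of -0.83, 0.67 and -0.61 in Bailing Capsule kidneys, compared with 0.43, -0.48 and -0.88 in diabetic kidneys. One array of each group, Bailing Capsule replicate 2 and diabetic replicate 1, stood above the other 4, which lay between -0.88 and -0.48. The SD was 0.81 in Bailing Capsule kidneys and 0.67 in diabetic kidneys (log2, n = 3 each). The log2 fold change was 0.053 (interval -0.93 to 1.04), and -0.69 (interval -1.87 to 0.49) with slide as a block. The groups could not be separated for Aqp11 at this spread.

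Avpr1a, the Gq-coupled V1a receptor of blood vessels and intercalated cells, was close to background and was not tested in the main fit. Requiring 50% or more of the spots to stand well above background, 2 of 3 Bailing Capsule arrays and 1 of 3 diabetic arrays measured it. In all, 22 of 30 spots did so in the Bailing Capsule group and 7 of 30 in the diabetic group. Its levels were -5.14, -3.92 and -4.82 in Bailing Capsule kidneys, compared with -5.50, -5.32 and -5.61 in diabetic kidneys. The levels of Bailing Capsule replicate 1 and of diabetic replicates 2 and 3 lay below the lowest well above background on those arrays, which was -4.95 for the first and -5.21 and -5.24 for the others. The groups were therefore not compared in the main fit. With no filter the log2 fold change was 0.85 (adjusted p = 0.846 in limma), a value that rests on these levels at background. The difference of means was 0.13 with normexp and quantile normalization, 0.91 with quantile normalization alone and 0.87 in the deposited values. Of the 4 tested smooth muscle markers 0 passed (median -0.18), and values ran from -0.41 for Acta2 to 0.060 for Myh11. The Acta2 value rests on 5 arrays, since its spot on diabetic replicate 2 was left out as an outlier. Of the marker lists not yet given, the 8 thick ascending limb genes had a median of 0.28, the 5 of the distal convoluted and connecting tubule 0.0082 and the 5 of endothelium -0.28, with 0 calls in each. The endothelium median was 0.17 with slide as a block, so its sign turned.

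Across the set, limma called 0 of the 9 tested genes at an adjusted p under 0.05, where it called 0.319% of the 17892 features tested, 0.129% as higher and 0.19% as lower. At an unadjusted p under 0.05 there was 1 member, Aqp3, against 7.55% of all features. Groups did not overlap for 2 of the 9, Aqp3 and Aqp7, against 11.6% of all features. When every probe was fitted on its own, 0 of the 11 tested probes of these genes passed, against 0.303% of all probes tested. Of the 9 values 6 were below 0, where 62.1% of all features were. The median was -0.34 over the 9 genes and -0.0897 over all features. With slide as a block 0 of the 9 passed, against 0.212% of all features, and the median was 0.0022 over the 9 genes and 0.0887 over all features. For Aqp3 the interval excluded 0 with and without the block, and the call over all features was not made in either.

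**Figure D2:**
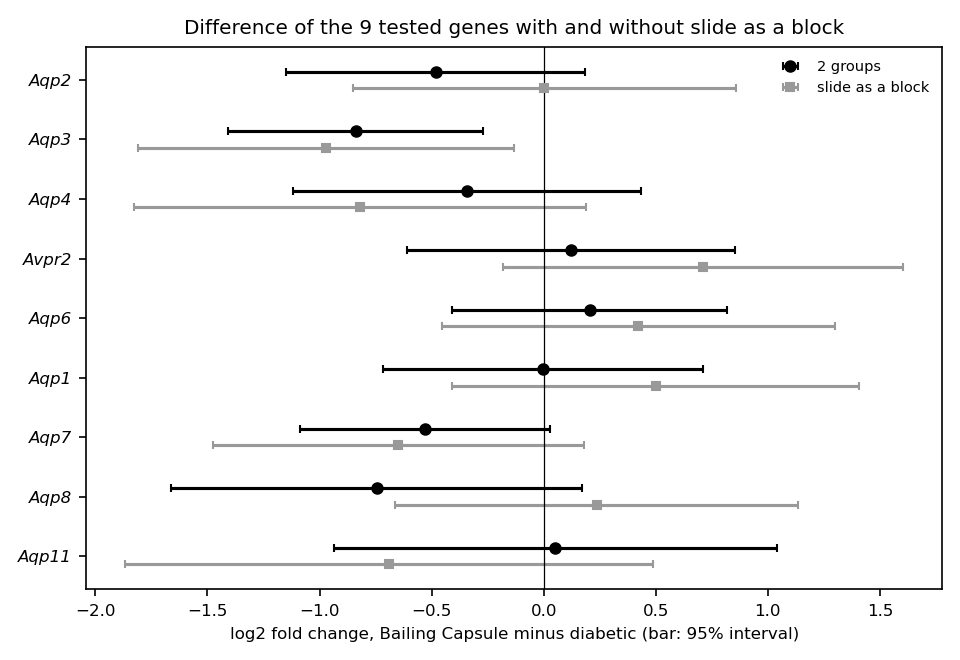
Log2 fold change, Bailing Capsule minus diabetic (horizontal axis), of the 9 tested genes with 95% intervals from limma, without slide (black) and with slide as a block (grey). The Aqp3 interval excludes 0 in both, the Aqp7 interval ends at 0.029 without slide, and Aqp2, Aqp1, Aqp8 and Aqp11 change sign with the block.

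The partners of these channels were described by 5 lists. Of the other aquaporins and genes of the vasopressin and oxytocin family, 6 were on the array and 0 passed the filter. Aqp5, which lies between Aqp2 and Aqp6, Aqp9 and vasopressin itself (Avp) were not well above background on any array. Mip, Aqp12a and the oxytocin receptor gene Oxtr were so on 2 arrays of each group.

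Cyclic AMP signalling below the V2 receptor, from the Gs subunit through adenylate cyclase to protein kinase A, had 13 tested members with a median of -0.018, and 0 passed. Adcy6, the adenylate cyclase mainly linked to this receptor in mouse, was not well above background on any array. Values ran from -0.25 for Prkaca, the catalytic subunit of protein kinase A, to 0.69 for its regulatory subunit gene Prkar2a (adjusted p = 0.609 in limma). Genes of aquaporin-2 trafficking and degradation had 20 tested members, a median of -0.053 and 0 calls. Among them the vesicle SNARE gene Vamp2 had -0.62, and -0.13 with slide as a block. Rab11fip2, an effector of recycling endosomes, was not well above background in diabetic replicates 2 and 3, and its fold change is not given. The list medians with slide as a block were 0.060 for cyclic AMP signalling and 0.0084 for trafficking, on the other side of 0.

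Urea and osmolyte handling, which builds the medullary gradient that draws water through these channels, had 7 tested members, a median of 0.15 and 0 calls. The taurine transporter gene Slc6a6 had levels of -0.51, -0.90 and -0.40 in Bailing Capsule kidneys, compared with 0.023, 0.041 and 0.028 in diabetic kidneys. Its groups did not overlap, which held for 1 of the 7 in this list, against 11.6% of all features. Slc6a6 did not pass (log2 fold change -0.63, adjusted p = 0.546 in limma). The vasopressin-regulated urea transporter gene Slc14a2 had levels of 2.89, 1.20 and 1.71 in Bailing Capsule kidneys, compared with 2.25, 2.07 and 0.32 in diabetic kidneys. It marks the inner medulla and thin limb, and its SD was 0.87 in Bailing Capsule kidneys and 1.06 in diabetic kidneys (log2, n = 3 each). How much medulla each sample held is not in the labels and was not tested. Transcription regulators of Aqp2 had 11 tested members, a median of 0.12 and 0 calls, from -0.37 to 0.75. Elf5, the highest of them, is also in the principal cell list, and its value stands there.

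**Figure D3:**
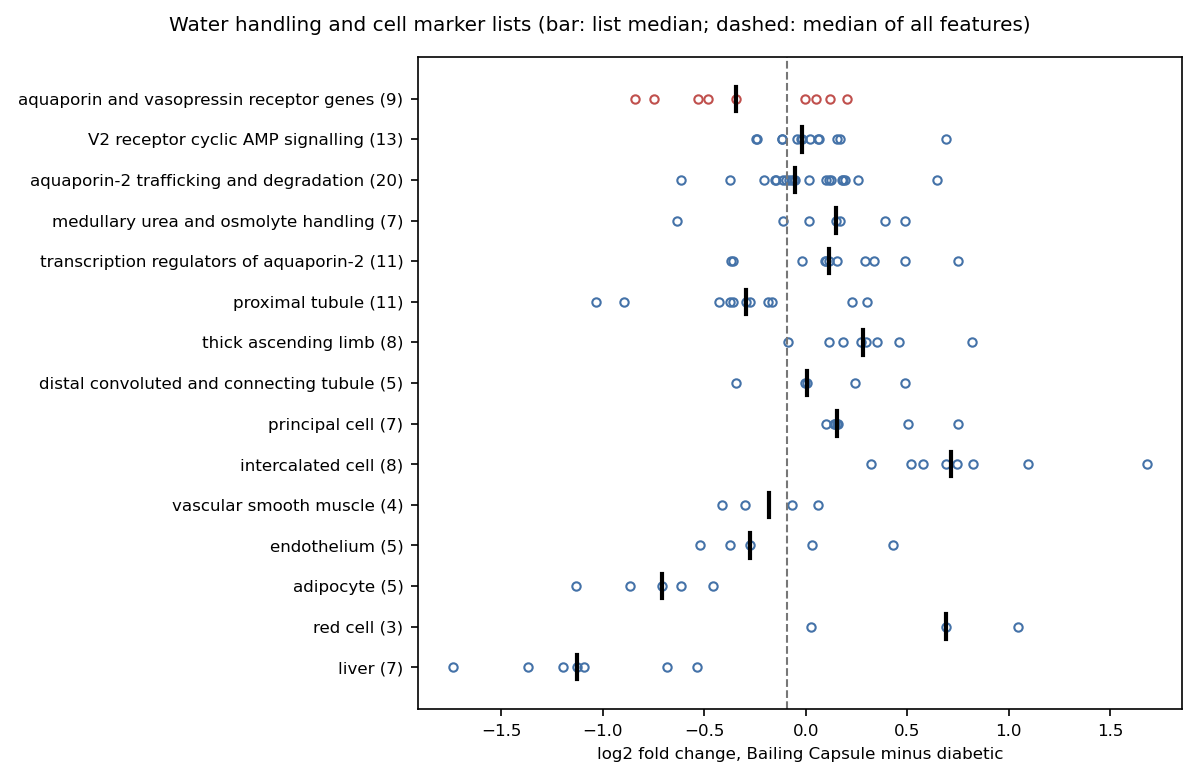
Log2 fold change, Bailing Capsule minus diabetic (horizontal axis), of every tested gene of the set (red) and of the pathway and cell marker lists (blue), with the number tested in brackets. Black bars are list medians and the dashed line is the median of all features, -0.0897. The water channel and receptor genes lie between -0.84 and 0.20.

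Likeness of pattern was measured as the mean absolute difference of log2 levels, each gene centred on its own mean over the 6 arrays, among 10401 named genes. The nearest to Aqp2 were Lct, Galc and Ttc7a, at 0.021, 0.042 and 0.047, where the median gene was at 0.34. The nearest to Aqp3 were Ces2j, Txnip and Ahrr, at 0.076, 0.091 and 0.092, where the median gene was at 0.44. This is a description over 6 arrays, on which no test was run.

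**Figure D4:**
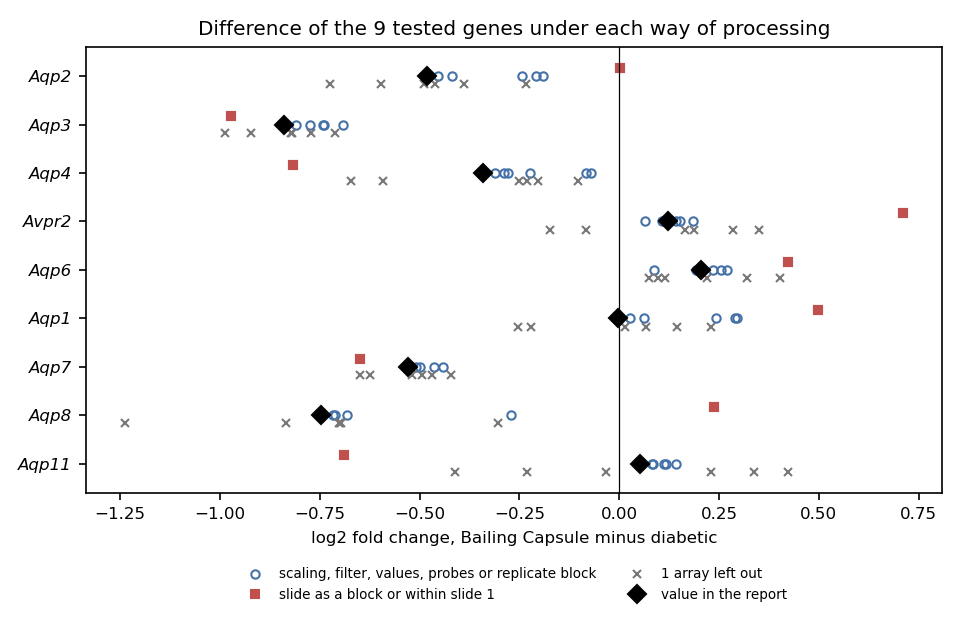
Log2 fold change, Bailing Capsule minus diabetic (horizontal axis), of the 9 tested genes as reported (diamonds), under other scalings, filters, values or the replicate block (circles), with 1 array left out (crosses) and with slide as a block or within slide 1 (squares). Aqp3 stays between -0.99 and -0.69 and Aqp7 between -0.65 and -0.42, while Aqp1, Aqp2, Aqp8, Aqp11 and Avpr2 fall on both sides of 0.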

How the data were processed

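Per the file headers, arrays were extracted with Feature Extraction 11.0.1.1, and the deposited processed signal is an intensity after background subtraction and detrending, unscaled between arrays. The deposited series table holds log2 values, as read from the values. Its columns all had a median of 5.05 and correlated with their own array at 0.983 to 0.994. The highest correlation with another array was 0.977 to 0.986, below that with the own array for every column. A correlation does not show that the scale is the same. How the table was made is not stated in the labels or headers.

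Spots marked as outliers by Feature Extraction were left out, spots of a probe were averaged on the log2 scale, and the 75th percentile over the 30367 probes was subtracted. A probe was kept where at least 50% of its spots were well above background on all 3 arrays of at least 1 group. The brightest kept probe stood for a gene. Accessions were matched, without versions, to RefSeq genes of GRCr8, which named 18005 probes and left 12362 unnamed. The headers name the older build rn4. A linear model with moderated variance (limma 3.58.1, R 4.3.3) was fitted to the 17892 features, with Benjamini-Hochberg adjustment over all of them and calls at an adjusted p under 0.05. The fit was tested on simulated data. The number of arrays limits the precision.

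The 10 genes, 5 pathway lists and 10 marker lists were chosen with earlier results of these data known. All 10 genes were to be named, up to 4 genes of each list by p, and the 3 genes nearest to Aqp2 and to Aqp3 in pattern. List genes named for not being well above background on all arrays of a group (Aqp5, Aqp9, Avp, Mip, Aqp12a, Oxtr, Adcy6, Lep, Apoa1, Ahsg and Cps1) fall outside that rule and were chosen after their values were seen. Alternatives were quantile and median scaling, normexp (offset 50) on the median spot signal, the deposited values, other filters, the mean of probes, each probe on its own, slide or replicate number as a block, slide 1 alone and each array left out.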

Additional observations from a re-analysis of the deposited data

How the results depend on the processing

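The number of these genes called was 0 under every alternative run, with a lowest adjusted p of 0.113 in limma, for Aqp8 without diabetic replicate 1. Of 164 values of single genes under alternatives, 140 kept their sign and 24 did not. Of the 24, 11 were of Aqp1 and 5 of Aqp11, whose values in the report, -0.0027 and 0.053, were near 0. Aqp2, Aqp4, Aqp8 and Avpr2 had 2 each. With slide as a block or within slide 1, Aqp1 had 0.50, Aqp2 0.0022, Aqp8 0.24 and Aqp11 -0.69, and the median over the 9 genes was 0.0022; this contrast rests on 1 diabetic array. Aqp1, at -0.0027 in the report, was 0.24 with quantile normalization, 0.027 with median scaling, 0.061 with the percentile taken over spots (chosen after the data were seen), 0.30 with normexp and 0.29 in the deposited values. Further probes of Aqp4 gave 0.020 and 0.11. With 1 array left out, Aqp1 ran from -0.25 to 0.23, Aqp11 from -0.41 to 0.42 and Avpr2 from -0.17 to 0.35. The median over the 9 genes was -0.082 with normexp and -0.071 with the mean of probes, and -0.52 to -0.20 with 1 array left out. The cause was not tested.

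The number of features called in all, 57 of 17892 as fitted in the report, was 12 with normexp, 6 with no filter, 9 within slide 1 and 17 to 195 with 1 array left out. Leaving out Bailing Capsule replicate 1 gave 141, replicate 2 gave 28 and replicate 3 gave 33, while leaving out diabetic replicate 1 gave 195, replicate 2 gave 17 and replicate 3 gave 18. Taking the replicate number as a block gave 6, and 0 of these genes passed. The deviations of same-numbered samples correlated at r = -0.181, -0.14 and 0.0194. These values show no pairing by number. With 3 samples per group, spread over 2 slides, they cannot exclude it. The cause of the changes in the number of features called was not tested. Avpr1a lay at background on 3 arrays, which limits what can be said of it.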
